A study of Mus musculus with 6 samples.

Results

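Immediate early genes, those of the FOS and JUN families with Egr1, Ier3 and Klf6, were examined in mouse tumors after photodynamic therapy (PDT). The named genes were taken by symbol from the expression table, which lists 21899 genes. These 10 genes were Fos, Fosb, Fosl1, Fosl2, Jun, Junb, Jund, Egr1, Ier3 and Klf6, and all 10 were found. Values are FPKM, fragments scaled by exon length and by sequencing depth, and each of the 10 averaged 1 FPKM or more, the minimum for a test. The choice was made by name, with no threshold on their values, but with earlier results of these data known.

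RNA was sequenced from tumors grown from LLC-luc cells, a line of Lewis lung carcinoma, that were placed under the skin of the left axilla of male C57BL/6 mice in a volume of 100 µL. In all 3 groups (n = 2 each) the tumors received the laser, given in the sample labels as 620 nm light for 10 min. The Laser group had the light without a photosensitizer, and its mice received saline according to the methods. The PC-La group had phycocyanin (PC), the blue light-harvesting protein of cyanobacteria, and the SePC-La group had selenium-enriched phycocyanin (Se-PC), both injected once every 5 days and some hours before the light. Every comparison was therefore between irradiated tumors, and no tumor without light was in the table. The methods state another wavelength and injection interval than the labels, and place the injection beneath the tumor where the labels place it in the tumor. The labels do not tie samples to single mice, so the p-values measure the spread between these samples, which may be in part technical.

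AP-1 is a dimer that joins a FOS or JUN family protein with another leucine zipper protein and binds a short palindromic DNA element. In resting cells many of these genes are silent or low, and growth factors, stress, wounding and tissue handling switch on their transcription within minutes through MAP kinases, serum response factor and CREB, without new protein synthesis. The transcripts of Fos, Fosb and Egr1 decay quickly, whereas Fosl1, Fosl2 and Jund products persist longer, and a sustained signal shifts the AP-1 dimers towards FRA-1, the product of Fosl1. In tumors, AP-1 is known for driving genes of invasion, matrix breakdown and angiogenesis.

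The promoters of Fos, Fosb and Ier3 are shown. Among the genes whose windows were searched, these had the widest differences between groups on the log2 scale, in either direction. Each run holds the 250 bases before the start site in the RefSeq window of build GRCm38.p6, 5′ to 3′ along the gene's strand. Capitals mark matches to the motifs named below. The Fos run is chr12:85473640-85473889 on the plus strand, the Fosb run is chr7:19310046-19310295 on the minus strand and the Ier3 run is chr17:35821463-35821712 on the plus strand.
Fos: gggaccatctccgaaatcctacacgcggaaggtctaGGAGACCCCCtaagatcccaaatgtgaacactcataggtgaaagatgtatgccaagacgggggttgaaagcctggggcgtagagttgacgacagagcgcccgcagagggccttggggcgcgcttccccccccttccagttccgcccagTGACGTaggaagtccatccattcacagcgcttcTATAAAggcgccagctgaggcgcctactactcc
Fosb: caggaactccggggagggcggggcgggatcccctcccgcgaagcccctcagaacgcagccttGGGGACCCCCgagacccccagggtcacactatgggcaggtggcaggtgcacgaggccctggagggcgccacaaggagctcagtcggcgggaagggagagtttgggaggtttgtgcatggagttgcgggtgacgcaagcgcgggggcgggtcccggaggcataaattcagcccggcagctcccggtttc
Ier3: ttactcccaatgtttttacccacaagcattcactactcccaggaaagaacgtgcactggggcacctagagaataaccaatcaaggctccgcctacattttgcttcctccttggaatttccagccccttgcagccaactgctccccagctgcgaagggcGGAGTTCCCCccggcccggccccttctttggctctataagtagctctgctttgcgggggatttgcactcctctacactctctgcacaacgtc

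RefSeq windows of 300 bases, 250 before and 50 after the start site, were searched for 8 of the 10 genes. Fosl1 had no window, and no window on chromosome 18, where Egr1 lies, was taken for the genes named here. The Jund window, chr8:70697489-70697788, ends before the first base of Jund in the coordinates given below, 70698949. Both strands were searched for the κB site, which binds NF-κB, for the CArG box, which binds serum response factor, and for the spelled motifs TGACGTCA and TGACGT (CREB), TGACTCA and TGACATCA (AP-1 and the related ATF dimers), GCGTGGGCG (EGR1) and TATAAA (the TATA box). The shorter CREB motif lies within the longer, so these 2 overlap. A κB match stood in 4 of the 8 windows, those of Fos, Fosb, Fosl2 and Ier3, against 4.505% of the 32851 windows of the table. It began 214 bases before the start site in Fos, 188 in Fosb and 92 in Ier3. TGACGT was found in Fos, 66 bases before the start, against 7.513% of all windows. TATAAA was found in Fos, 33 bases before the start, and in Junb, against 13.616%. In Junb it began at the start site of the window and not before it. TGACATCA was found 45 bases before the start of Jun and 119 before that of Klf6, against 3.619%. The CArG box, TGACGTCA, TGACTCA and GCGTGGGCG had 0 matches in the 8 windows, against 1.629%, 1.79%, 5.202% and 0.612% of all windows. A match is one of letters in 1 window per gene, and a missing match says only that the letters are not in that window.

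The samples held between 14447792 and 17649489 reads, recovered from the FPKM steps and the exon lengths. The 2 Laser samples were the least alike of the 3 pairs, with r = 0.946 across the 10853 genes tested, against 0.972 for the SePC-La pair and 0.992 for the PC-La pair. Laser replicate 1 was closer to both PC-La samples (r = 0.986 and 0.983) than to Laser replicate 2. Markers of lung epithelium were at or near 0 in all 6 samples of this tissue labelled as lung cancer, with no value of the 8 genes above 1.17 FPKM and Nkx2-1, Sftpd and Scgb1a1 at 0 throughout. Skeletal muscle markers (7 genes) summed to 133 FPKM in Laser replicate 2, 19.7 in Laser replicate 1 and at most 6.07 in the other 4 samples. In such bulk samples, fewer cells of a type and less RNA per cell cannot be told apart.

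Averaged over the 6 samples, Ier3 was the most abundant of the 10 genes per exon length with 164 ± 92.6 FPKM (SD, n = 6), followed by Junb with 113 ± 25.7 FPKM and Jun with 85.7 ± 4.17 FPKM. Klf6 had 67.5 ± 18.3 FPKM and Fos 35.0 ± 13.3 FPKM. Fosl1, Egr1 and Fosl2 lay close together at 18.4 ± 7.31, 18.0 ± 7.58 and 16.4 ± 3.09 FPKM. Jund had 8.65 ± 1.36 FPKM and Fosb 4.73 ± 4.34 FPKM. Ier3 exceeded Junb in 4 of 6 samples, and in both PC-La samples it was below Junb. Neighbours in this order overlapped in their range over the samples, except Fosl2 and Jund, whose ranges were apart. Klf6 exceeded Fos and Fosl2 exceeded Jund in 6 of 6 samples, while Fosl1 exceeded Egr1 in 3 of 6 and Egr1 exceeded Fosl2 in 3 of 6. Counts behind the values ranged from 83 reads, for Fosb in SePC-La replicate 1, to 7749, for Klf6 in Laser replicate 2.

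**Figure D1:**
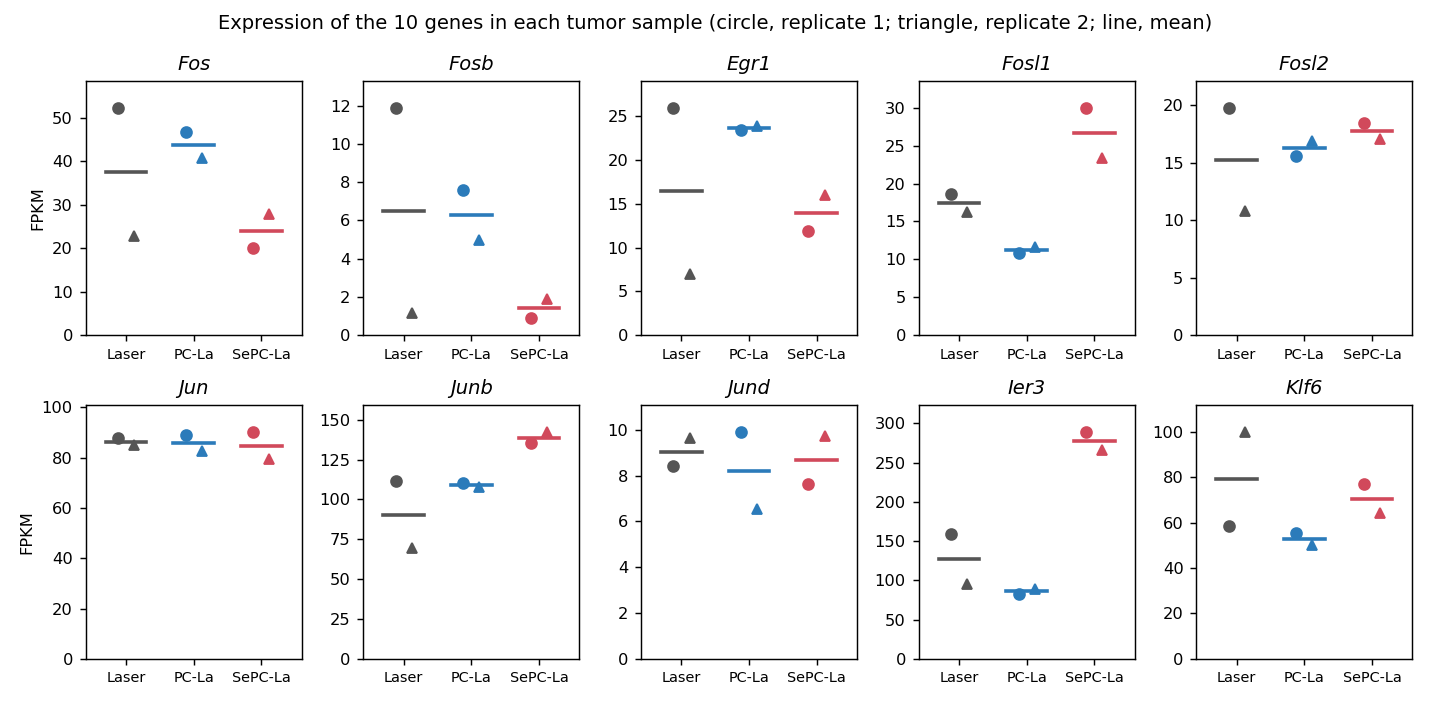
Expression of the 10 genes in FPKM (vertical axis, from 0, one scale per gene) in the Laser, PC-La and SePC-La samples, with circles for replicate 1, triangles for replicate 2 and lines for the group means. Ier3 and Fosl1 lie highest in both SePC-La samples, Fos, Fosb and Egr1 are far apart between the 2 Laser samples, and Jun stays between 79.3 and 90.3 FPKM.

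Differences were tested with limma on log2(FPKM + 1), two-sided, and all fold changes below are on that scale, which understates the change of low genes. A gene met the study's screening criterion if its log2 fold change was over 1 in size and its unadjusted p was under 0.05. Ier3 and Fosl1 were higher in SePC-La than in PC-La by this criterion, and Ier3 was also higher in SePC-La than in Laser. None of the 10 genes met it in PC-La against Laser. Fos, Fosb and Egr1 had their lowest group means in SePC-La in FPKM, although on the log2 scale Egr1 differed from Laser by 0.01, and none of their differences met the criterion in this fit. Jun and Jund had log2 fold changes between -0.15 and 0.09 in the 3 comparisons.

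In counts, 1 of the 10 genes met the criterion in SePC-La against Laser, where 0.682% of the 10853 genes tested did and 0.544% were higher, 0 in PC-La against Laser, where 1.29% did, and 2 in SePC-La against PC-La, where 2.98% did and 1.18% were higher. At an unadjusted p under 0.05 the counts were 3, 1 and 2 of the 10, beside 12.1%, 5.78% and 24.3% of all genes. With limma voom on the recovered reads, 0 of the 10 met the criterion in PC-La against Laser as well. No gene of the table reached a Benjamini-Hochberg adjusted p under 0.05 in the 3 comparisons by limma, although 1318, 627 and 2637 genes had an unadjusted p under 0.05, and voom also called 0. In a fit of only the 4 samples of SePC-La and PC-La, 637 genes reached it, among them Ier3, Fosl1 and Fosb with adjusted p-values of 0.0108, 0.0305 and 0.0419 by limma, which over all alternatives ranged from 0.0101 to 0.582, from 0.0305 to 0.582 and from 0.0419 to 0.713. In the fit of all 6 samples the smallest adjusted p over all genes was 0.376 for SePC-La against Laser, 0.406 for PC-La against Laser and 0.0649 for SePC-La against PC-La. An exact permutation test of 2 samples against 2 cannot go below p = 0.333. The median log2 fold change of the 10 genes was -0.01 in SePC-La against Laser, 0.06 in PC-La against Laser and 0.10 in SePC-La against PC-La, with medians over all genes of -0.06, -0.00 and -0.07. The 2 comparisons with Laser share the Laser samples.

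Groups did not overlap for 3 of the 10 genes in SePC-La against Laser (Ier3, Fosl1 and Junb, each higher), beside 40.6% of all genes, 15.0% higher in SePC-La. They did not overlap for 3 in PC-La against Laser (Ier3, Fosl1 and Klf6, each lower), beside 42.0%, with 21.6% lower in PC-La. In SePC-La against PC-La they did not overlap for 8, with Ier3, Fosl1, Fosl2, Junb and Klf6 higher and Fos, Fosb and Egr1 lower, beside 65.5%, with 26.0% higher and 39.5% lower. With 2 samples a group, such shares are common across the table, and the counts of 3, 3 and 8 lie near them.

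**Figure D2:**
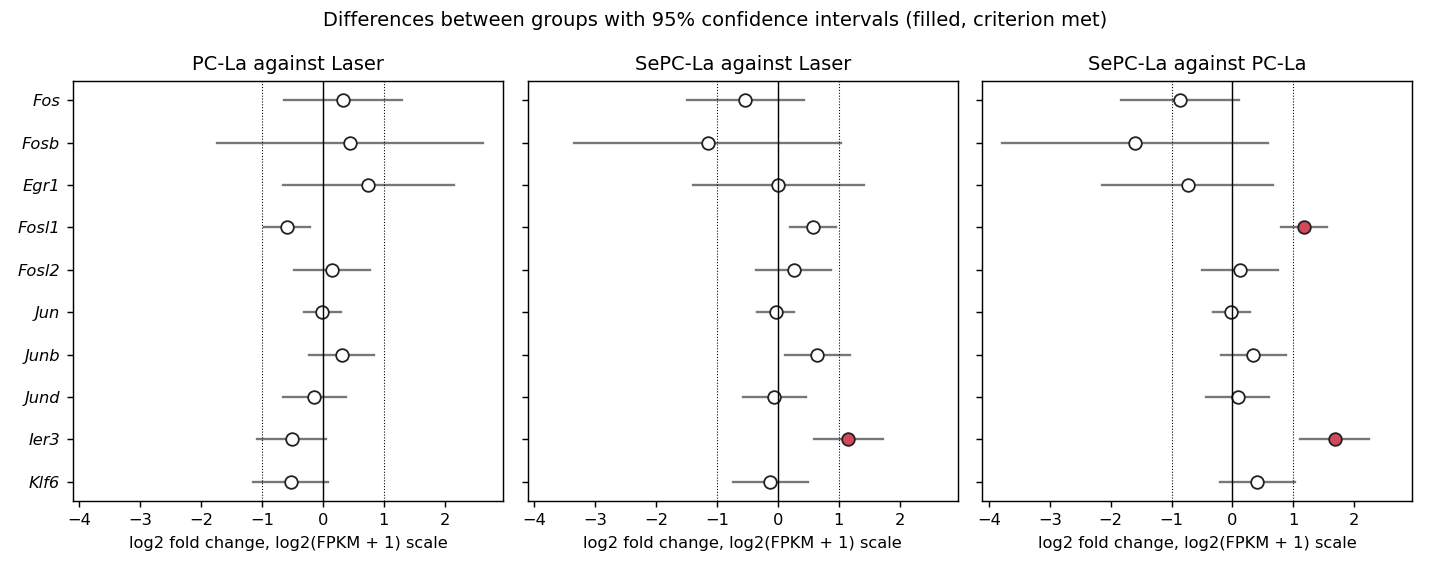
Log2 fold changes of the 10 genes on the log2(FPKM + 1) scale (horizontal axis) with 95% confidence intervals from limma, for PC-La against Laser, SePC-La against Laser and SePC-La against PC-La, with filled symbols where the criterion was met and dotted lines at 1 and -1. The filled symbols are Ier3 in both comparisons of SePC-La and Fosl1 in SePC-La against PC-La, and the intervals of Fos, Fosb and Egr1 are the widest.

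Among the FOS family, Fos (chr12:85473890-85477273, GRCm38, plus strand), the archetypal partner of JUN, had 52.1 and 22.8 FPKM in the Laser pair, 46.7 and 40.8 in the PC-La pair, and 19.9 and 27.9 in that of SePC-La. Both SePC-La samples lay below both PC-La samples, and Laser replicate 2 lay between the 2 SePC-La samples while Laser replicate 1 was the highest of all. The log2 fold change was -0.86 (SE 0.39, 95% interval -1.82 to 0.10) in SePC-La against PC-La, with an unadjusted p of 0.0711 and an adjusted p of 0.238 by limma. It was -0.53 (SE 0.39) in SePC-La against Laser and 0.33 (SE 0.39) in PC-La against Laser. Direction against Laser rested on the Laser sample used, since without Laser replicate 1 the SePC-La difference was 0.05, and without replicate 2 it was -1.11 and met the criterion.

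Fosb (chr7:19302696-19310051, minus strand), whose protein and shorter ΔFOSB form also pair with JUN, had 11.9 and 1.14 FPKM in the Laser pair, 7.56 and 4.99 in the PC-La pair, and 0.920 and 1.91 in that of SePC-La. These values rest on 1164, 126, 738, 466, 83 and 208 reads in the same order. Laser replicate 1 held 10.4 times the level of Laser replicate 2, the widest gap within a group among the 10 genes, and both SePC-La samples lay below both PC-La samples. The mean was 1.41 ± 0.699 FPKM in SePC-La against 6.28 ± 1.82 in PC-La (SD, n = 2), a log2 fold change of -1.60 (SE 0.86, 95% interval -3.79 to 0.59) with an unadjusted p of 0.119 and an adjusted p of 0.301 by limma. In a fit of the 4 PC-La and SePC-La samples alone, in which the Laser pair does not enter the spread, the same difference had a limma unadjusted p of 0.00132 and met the criterion. Against Laser the log2 fold change was -1.15 (SE 0.86) in SePC-La, which became 0.14 without Laser replicate 1 and -2.44 without replicate 2, and 0.45 (SE 0.86) in PC-La, which became 1.74 and -0.84.

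Fosl1 (chr19:5447547-5455946, plus strand), which encodes FRA-1, was higher in SePC-La than in PC-La, unlike Fos and Fosb. It had 18.6 and 16.3 FPKM in the Laser pair, 10.8 and 11.6 in the PC-La pair, and 29.9 and 23.4 in that of SePC-La. The 3 groups did not overlap, with both PC-La samples below both Laser samples and both SePC-La samples above them. The mean in SePC-La was 26.7 ± 4.61 FPKM (SD, n = 2), 2.38 times that of PC-La at 11.2 ± 0.547. This log2 fold change was 1.17 (SE 0.16, 95% interval 0.80 to 1.55), with an unadjusted p of 0.000208 and an adjusted p of 0.0868 by limma, and it lay between 1.00 and 1.34 with each sample left out in turn. Against Laser, Fosl1 differed by 0.58 (SE 0.16, unadjusted p = 0.00882, adjusted p = 0.376 by limma) in SePC-La and by -0.60 (SE 0.16, unadjusted p = 0.00775, adjusted p = 0.670 by limma) in PC-La, both under the fold of the criterion. Fosl1 shares exon bases with Ccdc85b on the other strand, and whether the counting used strand is not given in the sources used here, so reads of the 2 genes may not be told apart.

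Fosl2 (chr5:32135801-32157842, plus strand), which encodes FRA-2, had 19.7 and 10.8 FPKM in the Laser pair, 15.6 and 16.9 in the PC-La pair, and 18.5 and 17.0 in that of SePC-La. The highest and the lowest sample were both Laser samples. SePC-La lay just above PC-La without overlap, by 0.12 (SE 0.26, 95% interval -0.51 to 0.74) on the log2 scale.

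Among the JUN family, Jun (chr4:95049034-95052222, minus strand), the strongest transactivator of the family, had 88.0 and 84.9 FPKM in the Laser pair, 88.9 and 82.7 in the PC-La pair, and 90.3 and 79.3 in that of SePC-La. The Laser pair lay within the range of the PC-La pair, which lay within that of the SePC-La pair. The log2 fold changes were -0.03 in SePC-La against Laser, -0.01 in PC-La against Laser and -0.02 in SePC-La against PC-La, each with an SE of 0.13, and the interval of the last ran from -0.32 to 0.29. Under median-ratio scaling, which raised the median of all genes by 0.06 and 0.07 in the comparisons of SePC-La with Laser and with PC-La, those of Jun became 0.04 and 0.06. Under quantile normalization they were -0.16 and -0.14 in the same comparisons. Jun shares exon bases with the antisense gene Junos.

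Junb (chr8:84974484-84978718, minus strand), a weaker activator that can also oppose JUN, had 112 and 69.4 FPKM in the Laser pair, 110 and 108 in the PC-La pair, and 135 and 142 in that of SePC-La. The SePC-La samples were the 2 highest of the 6, and Laser replicate 2 was the lowest. The log2 fold change was 0.65 (SE 0.22, 95% interval 0.12 to 1.18, unadjusted p = 0.0238, adjusted p = 0.382 by limma) in SePC-La against Laser, 0.34 (SE 0.22) in SePC-La against PC-La and 0.31 (SE 0.22) in PC-La against Laser. Leaving out Laser replicate 2 brought the difference from Laser to 0.31, and leaving out replicate 1 brought it to 0.99. Junb shares exon bases with Prdx2 on the other strand.

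Jund (chr8:70698949-70700616, plus strand), the member that is expressed in resting cells, had 8.43 and 9.65 FPKM in the Laser pair, 9.90 and 6.53 in the PC-La pair, and 7.64 and 9.72 in that of SePC-La, from 163 to 284 reads. All groups overlapped. The differences ran from -0.15 in PC-La against Laser to 0.09 in SePC-La against PC-La (SE 0.21), and that in SePC-La against Laser was -0.06 and became 0.00 under median-ratio scaling and 0.02 under quantile normalization, which also raised the median of all genes by 0.06. Jund shares exon bases with Gm11175 on the other strand.

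Egr1 (chr18:34859823-34864984, plus strand), a zinc finger factor that binds GC-rich promoters, had 25.9 and 7.01 FPKM in the Laser pair, 23.4 and 23.8 in the PC-La pair, and 11.9 and 16.0 in that of SePC-La. The PC-La samples were nearly equal and above both SePC-La samples, and the Laser samples enclosed all the others. The log2 fold change was -0.73 (SE 0.56, 95% interval -2.14 to 0.67) in SePC-La against PC-La, with an unadjusted p of 0.241 and an adjusted p of 0.439 by limma. Against Laser it was 0.01 (SE 0.56) in SePC-La and 0.74 (SE 0.56) in PC-La. Without Laser replicate 1 the PC-La difference was 1.62 and met the criterion, and without replicate 2 it was -0.13.

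Ier3 (chr17:35821684-35822923, plus strand), also known as IEX-1, is a stress-induced gene that modulates cell death and ERK and NF-κB signalling. It had 159 and 95.8 FPKM in the Laser pair, 83.2 and 88.9 in the PC-La pair, and 289 and 266 in that of SePC-La, from 2827, 1912, 1471, 1504, 4724 and 5250 reads. Both SePC-La samples were above all 4 others, and both PC-La samples were below both Laser samples. The mean in SePC-La, 277 ± 16.4 FPKM (SD, n = 2), was 3.23 times that in PC-La, 86.0 ± 3.99, and 2.18 times that in Laser, 127 ± 44.7. The log2 fold change was 1.68 (SE 0.24, 95% interval 1.11 to 2.24, unadjusted p = 0.000288, adjusted p = 0.0977 by limma) against PC-La and 1.16 (SE 0.24, 95% interval 0.59 to 1.73, unadjusted p = 0.00219, adjusted p = 0.376 by limma) against Laser. In PC-La against Laser it was -0.52 (SE 0.24, unadjusted p = 0.0678, adjusted p = 0.753 by limma), and leaving out Laser replicate 1 or 2 moved it to -0.15 or -0.88. The window printed for Ier3 holds the κB match nearest to a start site among the 4 genes with one. Whether this match has a part in the level of Ier3 was not tested. The difference from PC-La met the criterion under each alternative run, while that from Laser was below the fold of the criterion with quantile normalization (0.97) and without Laser replicate 2 (0.80).

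Klf6 (chr13:5861482-5870394, plus strand), a zinc finger factor of the Krüppel-like family, had 58.5 and 100.0 FPKM in the Laser pair, 55.4 and 50.2 in the PC-La pair, and 76.9 and 64.1 in that of SePC-La. Laser replicate 2, with the lowest Egr1 of the 6 samples, had the highest Klf6. Both PC-La samples were below all 4 others. The log2 fold change was -0.53 (SE 0.25, unadjusted p = 0.0807, adjusted p = 0.753 by limma) in PC-La against Laser, 0.41 (SE 0.25, 95% interval -0.21 to 1.02) in SePC-La against PC-La and -0.12 (SE 0.25) in SePC-La against Laser. Leaving out Laser replicate 1 or 2 moved the first of these to -0.91 or -0.15.

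The makeup of each family was given as the share of each gene in the summed FPKM of its family, which are levels per exon length. Fosl1 made up 43.2% and 33.3% of the FOS family in SePC-La, 18.2% and 31.9% in the Laser pair and 13.4% and 15.6% in PC-La. Fos made up 28.8% and 39.7% in SePC-La, against 51.0% and 44.6% in the Laser pair and 57.9% and 54.9% in PC-La. In SePC-La replicate 1 the share of Fosl1 exceeded that of Fos, which held in none of the other 5 samples. Fosb took between 1.33% and 11.6%, and its 2 largest shares were in Laser replicate 1 and PC-La replicate 1. The summed FOS family was 69.2 and 70.2 FPKM in SePC-La, 80.6 and 74.3 in PC-La and 102 and 51.0 in Laser, so the SePC-La sums lay within the span of the Laser samples and below those of PC-La. In the JUN family Junb took 58.0% and 61.5% in SePC-La, 52.8% and 54.7% in PC-La and 53.6% and 42.3% in Laser, and the sum was 233 and 231 FPKM in SePC-La, 209 and 197 in PC-La and 208 and 164 in Laser. Both SePC-La samples had the highest Junb shares and sums of the 6. These shares were not tested apart from the genes that form them.

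**Figure D3:**
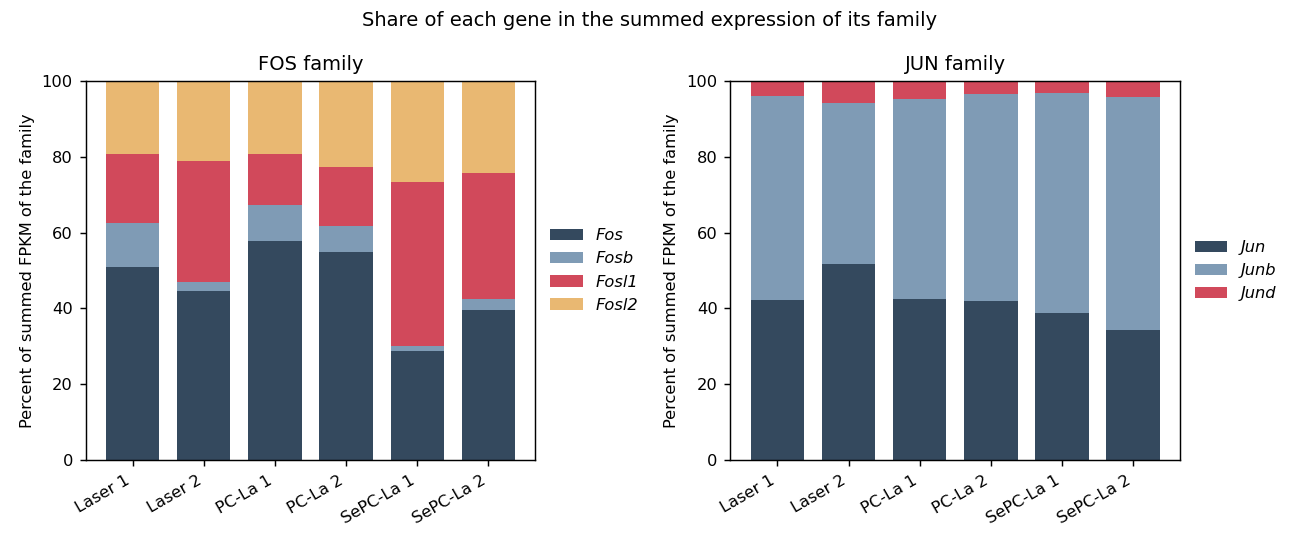
Share of each gene in the summed FPKM of the FOS family and of the JUN family (vertical axis, percent, from 0 to 100) in each of the 6 samples, as stacked bars. The Fosl1 segment is widest in the SePC-La samples, with 43.2% and 33.3%, and narrowest in the PC-La samples, with 13.4% and 15.6%.

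Fibroblast markers, a list of 7 matrix and receptor genes led by Col3a1, Lum and Dcn, summed to 1243 and 288 FPKM in the Laser pair, 1717 and 1568 in the PC-La pair, and 122 and 634 in that of SePC-La. The 3 samples with the lowest sums, Laser replicate 2 and both SePC-La samples, were also the 3 with the lowest Fos, Fosb and Egr1. Of the 7 markers, 4 were lower in SePC-La than in PC-La without overlap, beside 39.5% of all genes. Col1a1 and Col1a2 went another way in SePC-La replicate 2 only, with 23.2 and 10.1 FPKM, their highest values of the 6 samples. In SePC-La replicate 1 they had 3.99 and 1.33 FPKM, below both PC-La samples. For Pdgfrb the groups overlapped, with 3.46 and 4.99 FPKM in the Laser pair, 2.50 and 5.75 in the PC-La pair, and 4.49 and 3.36 in that of SePC-La. The part of fibroblasts in the differences of Fos, Fosb and Egr1 was not tested.

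Neutrophil markers, a list of 10 genes led by S100a9 and S100a8, summed to 338 and 443 FPKM in SePC-La, 147 and 79.5 in PC-La and 152 and 39.9 in Laser. Of the 6 markers with a mean of at least 1 FPKM, 6 were higher in SePC-La than in PC-La without overlap, beside 26.0% of all genes, and 3 met the criterion, beside 1.18%. Against Laser, 5 were higher without overlap, beside 15.0%, and 3 met the criterion, beside 0.544%. The granule genes Ltf, Camp and Ngp and the surface antigen gene Ly6g stayed at or below 1.73 FPKM in each sample. Ier3, Fosl1 and Junb were highest in the same 2 SePC-La samples, as were the erythroid and heat shock sums given below. Laser replicate 2, with the lowest neutrophil sum, had the lowest Junb but more Fosl1 and Ier3 than both PC-La samples. The part of neutrophils in these levels was not tested.

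Heat shock genes, which respond to stress and tissue handling as immediate early genes do, summed over 8 genes to 1035 and 764 FPKM in SePC-La, 541 and 643 in PC-La and 666 and 743 in Laser. Of the 8, 6 were higher and 1 was lower in SePC-La than in PC-La without overlap, beside 26.0% and 39.5% of all genes. Macrophage markers (10 genes) summed to between 1060 and 2169 FPKM, and the highest sum, in Laser replicate 2, was carried by Lyz2, with 1409 FPKM there and between 599 and 779 in the other 5 samples. Of these 10, 2 were higher and 5 lower in SePC-La than in PC-La without overlap, beside 26.0% and 39.5% of all genes, and 2 were lower at the criterion, where 2.98% of all genes met it in either direction. Erythroid markers (6 genes) summed to 127 and 13.6 FPKM in the Laser pair, 263 and 362 in the PC-La pair, and 613 and 933 in that of SePC-La. T cell (at most 15.5 FPKM), endothelial (at most 30.2), adipocyte (at most 20.1) and keratinocyte markers (at most 0.666) were low in every sample. The part of these cells, of handling and of blood in the differences above was not tested.

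**Figure D4:**
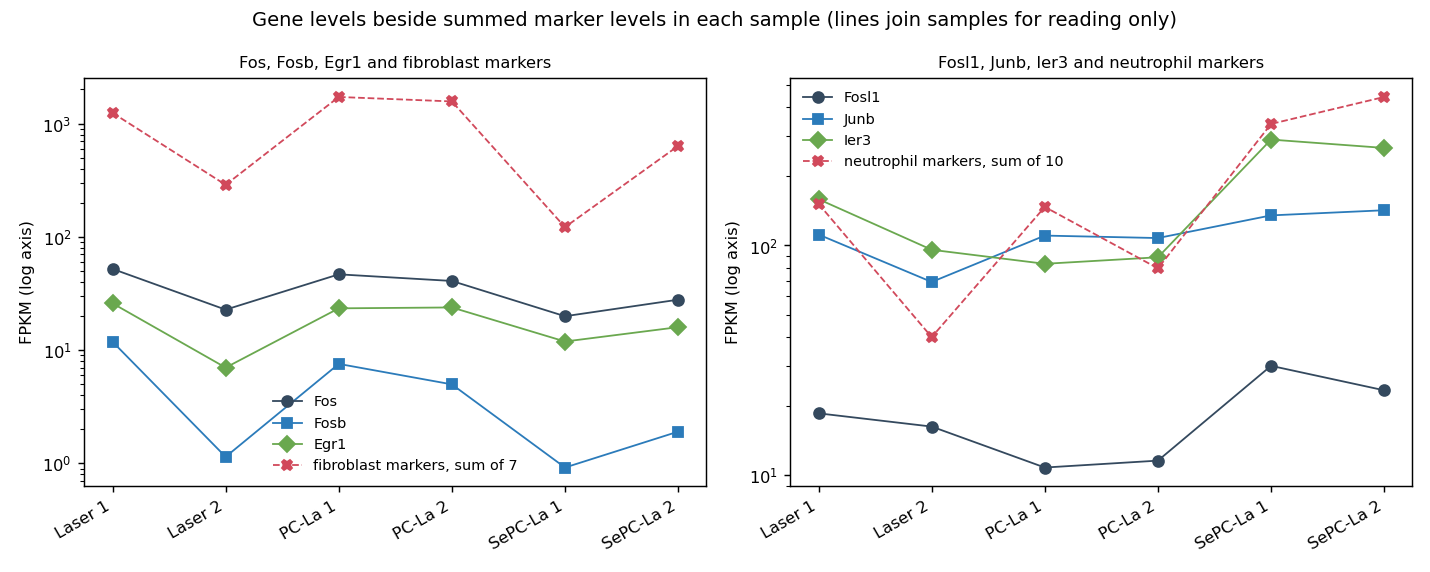
FPKM on a log axis in each of the 6 samples for Fos, Fosb and Egr1 beside the sum of 7 fibroblast markers (left) and for Fosl1, Junb and Ier3 beside the sum of 10 neutrophil markers (right), with lines that join samples for reading only. Laser replicate 2 and both SePC-La samples are low in the left panel, and both SePC-La samples are high in the right panel.

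Other immediate early genes, a list of 20 that includes Atf3, Egr2, Egr3, Ier2, Nr4a1, Dusp1 and Myc, were set against the same criterion. Of the 19 tested, 1 met it in SePC-La against Laser, beside 0.682% of all genes, 0 in PC-La against Laser (also 0 by voom), beside 1.29%, and 2 in SePC-La against PC-La, beside 2.98%, each of them higher. At an unadjusted p under 0.05 by limma there were 5, all higher, in SePC-La against Laser, 1, lower, in PC-La against Laser, and 6 higher and 1 lower in SePC-La against PC-La, beside 12.1%, 5.78% and 24.3% of all genes. In the last comparison 10 were higher and 7 lower without overlap, beside 26.0% and 39.5%. Nr4a3 was below the filter. Gadd45b, which encodes a stress sensor upstream of p38 and JNK, had 6.81 and 2.67 FPKM in the Laser pair, 3.79 and 3.70 in the PC-La pair, and 11.4 and 10.5 in that of SePC-La, with log2 fold changes of 1.15 (SE 0.34) against Laser and 1.33 (SE 0.34) against PC-La. Both its SePC-La samples were above the other 4. Myc, a growth-promoting factor, had 185 and 256 FPKM in the Laser pair, 122 and 133 in the PC-La pair, and 448 and 295 in that of SePC-La, with log2 fold changes of 1.51 (SE 0.24) in SePC-La against PC-La and -0.77 (SE 0.24) in PC-La against Laser, so its 3 groups stood in the same order as those of Fosl1 and Ier3. The medians of the list were 0.26, 0.07 and 0.36 for SePC-La against Laser, PC-La against Laser and SePC-La against PC-La.

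The other leucine zipper partners of AP-1 (10 genes) and the upstream factors and kinases (18 genes) had 0 genes at the criterion in the 3 comparisons. Of all genes, 0.682% met it in SePC-La against Laser, 1.29% in PC-La against Laser and 2.98% in SePC-La against PC-La. At an unadjusted p under 0.05 by limma there were 2, 2 and 3 of the partners and 3, 0 and 4 of the inducers, in SePC-La against Laser, PC-La against Laser and SePC-La against PC-La, beside 12.1%, 5.78% and 24.3% of all genes. By voom 1 partner met the criterion in PC-La against Laser, and 0 partners and 0 inducers did otherwise. Srf, which encodes serum response factor, had 25.6 and 25.4 FPKM in the Laser pair, 21.6 and 25.5 in the PC-La pair, and 36.9 and 33.5 in that of SePC-La. Its SePC-La samples were above the other 4, by 0.45 (SE 0.13) against Laser and 0.56 (SE 0.13) against PC-La on the log2 scale. Among the partners with the smallest p, Atf7 differed by -0.48 (SE 0.12) in SePC-La against Laser, Batf2 by 0.99 (SE 0.22) in PC-La against Laser and Jdp2, a repressor that competes for JUN, by 0.75 (SE 0.18) in SePC-La against PC-La. Among the inducers in PC-La against Laser, the smallest p belonged to Rps6ka1, a kinase below ERK, with 0.61 (SE 0.27).

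Feedback inhibitors of these pathways (14 genes) had 0 genes at the criterion against Laser in either group, beside 0.682% and 1.29% of all genes for SePC-La and PC-La. At an unadjusted p under 0.05 by limma they numbered 2 and 0 in the same order, beside 12.1% and 5.78%. By voom 0 met the criterion against Laser. In SePC-La against PC-La 1 was higher and 1 lower at the criterion, beside 2.98% of all genes, and 3 were higher and 4 lower at an unadjusted p under 0.05, beside 24.3%. Dusp4, a nuclear phosphatase that inactivates ERK, had 18.3 and 16.0 FPKM in the Laser pair, 10.8 and 13.0 in the PC-La pair, and 36.5 and 24.4 in that of SePC-La, a log2 fold change of 1.26 (SE 0.21) against PC-La. Spry2, an inhibitor of receptor tyrosine kinase signalling, had 76.9 and 30.3 FPKM in the Laser pair, 95.4 and 75.8 in the PC-La pair, and 23.3 and 43.2 in that of SePC-La, a log2 fold change of -1.39 (SE 0.50) against PC-La. The 3 groups of Dusp4 stood in the order of those of Fosl1, and Spry2 was low in the same 3 samples as Fos. Against Laser the smallest p in this list belonged to Dusp5, another ERK phosphatase, with 0.76 (SE 0.15) in SePC-La, and to Dusp4, with -0.49 (SE 0.21) in PC-La.

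Known target genes of AP-1 and EGR1 (20 genes of matrix breakdown, cytokines and growth factors) had 4 genes higher at the criterion in SePC-La against Laser, beside 0.544% of all genes, 1 higher and 1 lower in PC-La against Laser, beside 1.29% in either direction, and 5 higher in SePC-La against PC-La, beside 1.18%. Their median log2 fold change was 0.94, 0.16 and 0.51 in the same order. Without overlap, 13 of the 20 were higher and 0 lower in SePC-La than in Laser, beside 15.0% of all genes higher, 7 were higher and 2 lower in PC-La than in Laser, beside 42.0% in either direction, and 12 were higher and 4 lower in SePC-La than in PC-La, beside 26.0% and 39.5%. Several genes of this list also mark inflammation or hypoxia and are reached by other factors, so their levels do not measure AP-1 activity. This list, like the others here, was chosen with earlier results of these data known. Its counts and medians beside those of all genes are therefore a description and not a test.

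Among these targets, Vegfa, the angiogenic growth factor, had 32.8 and 15.5 FPKM in the Laser pair, 18.9 and 16.2 in the PC-La pair, and 60.1 and 45.6 in that of SePC-La, with log2 fold changes of 1.18 (SE 0.35) against Laser and 1.53 (SE 0.35) against PC-La. It was highest in the 2 SePC-La samples. Hmox1, heme oxygenase, had 265 and 117 FPKM in the Laser pair, 83.4 and 50.4 in the PC-La pair, and 369 and 315 in that of SePC-La, and was lower in PC-La than in Laser by -1.43 (SE 0.43) and higher in SePC-La than in PC-La by 2.38 (SE 0.43). Its 3 groups were again ordered as those of Fosl1 and Ier3. Areg, an EGF receptor ligand, and the collagenase Mmp13 were higher in SePC-La than in Laser by 1.33 (SE 0.35) and 2.34 (SE 0.89). The Laser pair was split for both, with 22.8 and 10.1 FPKM for Areg and 9.09 and 0.827 for Mmp13. In SePC-La Areg had 41.7 and 38.2 FPKM and Mmp13 25.2 and 17.1. Plaur, the urokinase receptor, and the neutrophil chemokine Cxcl2 were higher in SePC-La than in PC-La by 1.19 (SE 0.14) and 2.32 (SE 0.68). Plau, urokinase, was higher in PC-La than in Laser by 1.21 (SE 0.44). It had 89.8 and 39.4 FPKM in the Laser pair and 115 and 168 in PC-La.

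**Figure D5:**
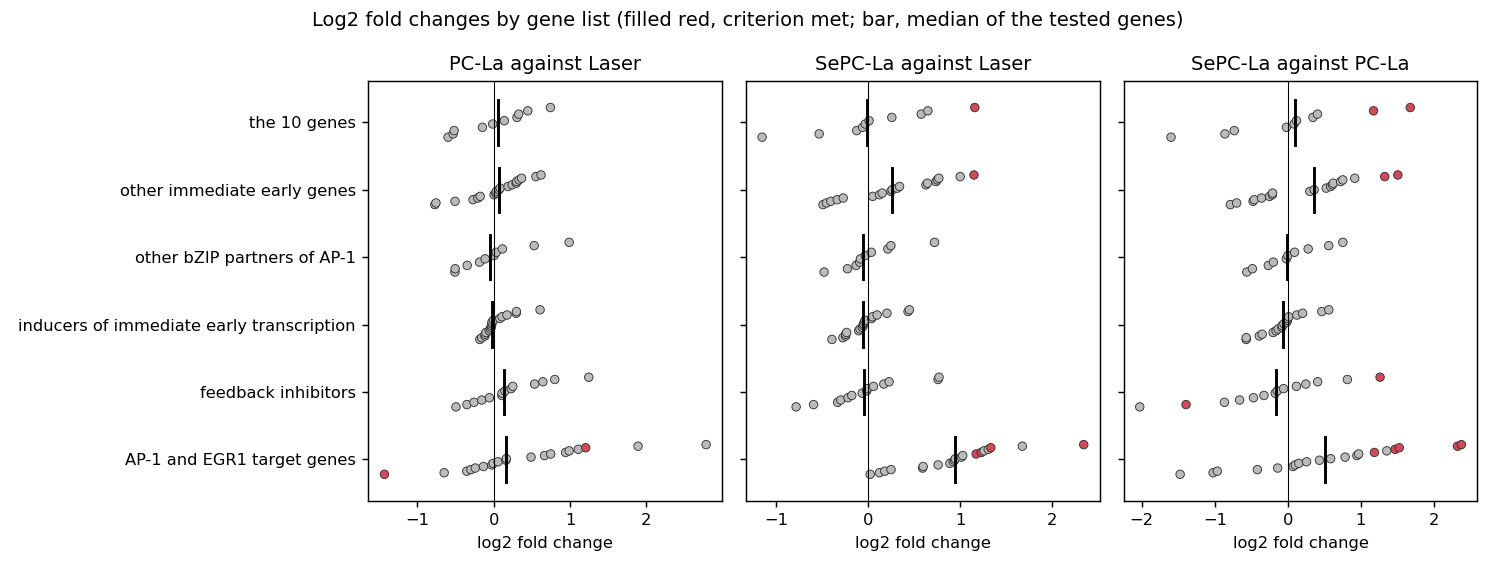
Log2 fold changes on the log2(FPKM + 1) scale (horizontal axis) of each tested gene of 6 lists (rows) in PC-La against Laser, SePC-La against Laser and SePC-La against PC-La, with red symbols where the criterion was met and a bar at the list's median. The target genes have the highest median in SePC-La against Laser, 0.94, and the 10 genes spread to both sides of 0 in each comparison. The lists were chosen with earlier results of these data known.

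The genes whose pattern was most like that of a given gene were found by Pearson's r on log2(FPKM + 1) over the 6 samples, among the 7489 genes that averaged 5 FPKM or more, as a description with no test. With 6 samples and this many genes, high values are found for nearly any pattern. For Fos they were Dctn1 (r = 0.995), Nr2f2 (0.994) and Eya1 (0.993), and for Egr1 Pdia4 (0.998), Itga5 (0.997) and Spred3 (0.997). For Fosl1 they were Vdac1 (0.995), U2af1 (0.994) and Gpr108 (0.989). For Junb they were Nab1 (0.996), Socs3 (0.989) and Basp1 (0.987), and for Klf6 Vps26a (0.997), Scap (0.993) and Zdhhc2 (0.989). The span of the like genes was often small, such as 24.3 to 30.3 FPKM for Dctn1 where Fos ran from 19.9 to 52.1, while Eya1, a developmental transcription cofactor, ran from 2.49 to 11.1 FPKM.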

How the data were processed

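RNA was extracted from tumor tissue with Trizol, libraries were made with the NEBNext Ultra II kit and sequenced on an Illumina instrument. The submitters' processing notes name HISAT2 2.0.5, HTSeq 0.9.1, DESeq 1.30.0 and mm9, with no role or order. The authors deposited 1 table of normalized values for 21899 genes in 6 samples. Its unit is not named. The deposited values were taken as FPKM because, with the merged exon lengths of GENCODE M21 (GRCm38), whole reads (within 0.02 reads, for values above 0 and up to 2000 reads) came out for 97.8% to 98.0% of each sample. An exon length was lacking for 104 genes. The recovered totals were 14447792 to 17649489 reads, and coordinates are from that annotation. The build that was counted on is therefore not settled by the notes. Every column was used.

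Samples were grouped by their labels. The 10853 genes that averaged 1 FPKM or more were fitted on log2(FPKM + 1) by limma 3.58.1 (R 4.3.3), with 1 mean per group over all 6 samples, empirical Bayes with a trend and robust estimation, no replicate block, two-sided tests and Benjamini-Hochberg adjustment over all genes tested. Most genes had 6.4 degrees of freedom. The criterion was an absolute log2 fold change over 1 with an unadjusted p under 0.05. Scripts were tested on simulated data with 200 genes changed. The members and lists were chosen with earlier results of these data known. Named genes are the 10 members, each gene of a list at the criterion or otherwise that with the smallest p in a comparison, and the 3 genes most like each of 5 members. The result of 1 gene of the target list is not reported here, and the gene still enters the fits and the list's counts. S100a8, S100a9 and the other marker genes were named from the marker lists after their values were seen. Same-numbered samples did not deviate together (r = 0.09, -0.43 and -0.18 for Laser with PC-La, Laser with SePC-La and PC-La with SePC-La), so replicate numbers were not taken as pairs.

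Alternatives were quantile normalization, median-ratio scaling, a pseudocount of 0.1, a minimum mean of 5 FPKM or no filter, leaving out the trend or the robust estimation, the 4 compared samples alone, the replicate block, each sample left out, and limma voom on the recovered reads. Promoter windows are from RefSeq (GRCm38.p6). Intervals cover the spread between samples only. Python 3.11.15 with pandas 2.3.3, NumPy 2.4.6 and, for plots, matplotlib 3.10.9 was used.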

Additional observations from a re-analysis of the deposited data

How the results depend on the processing

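With 2 samples a group and no adjusted p under 0.05 by limma in the fit reported, the values rest mainly on whether the pairs of samples were alike, and the Laser pair was not. Of 477 values of single genes under alternatives, 442 kept their direction and their side of the criterion, 2 no longer met it, 7 newly met it and 26 changed sign. The cause of a change was not tested where none is named. Many of the 477 could not change sign. Changing the filter, the trend or the robust estimation left each log2 fold change as it was. So did adding the replicate block, fitting the compared samples alone, and leaving out a sample of the group not compared. Under these settings a gene below the fold of the criterion could not newly meet it. The count of 442 therefore overstates how far the values withstood the alternatives. All-gene counts at the criterion are 74, 140 and 323 for SePC-La against Laser, PC-La against Laser and SePC-La against PC-La.

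With a pseudocount of 0.1 the count was 129 in SePC-La against Laser and 488 in SePC-La against PC-La. With a minimum mean of 5 FPKM, which tests fewer genes, the counts were 46, 68 and 186. With voom they were 133 in SePC-La against Laser and 222 in PC-La against Laser. Leaving out each sample in turn, with the lone sample assumed to vary like the other groups, gave 60 to 253, 71 to 664 and 169 to 584, the 253 and 664 without Laser replicate 1. Of the 10 genes, 0 met the criterion in SePC-La against Laser under quantile normalization. With each sample left out they numbered 1 to 2 in SePC-La against Laser, 0 to 2 in PC-La against Laser and 2 to 3 in SePC-La against PC-La. Without Laser replicate 2 the 2 genes of the SePC-La comparison were Fosb and Fos, and without Laser replicate 1 the 2 of the PC-La comparison were Fosb and Egr1. The median of the 10 genes in SePC-La against Laser ran from -0.013 to 0.40 with each sample left out, the latter without Laser replicate 1, and that in PC-La against Laser from -0.20 to 0.28.

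Scaling raised the median of all genes in SePC-La against Laser by 0.058 with median-ratio scaling and 0.055 with quantile normalization. The rises in SePC-La against PC-La were 0.065 and 0.084 in the same order. Under median-ratio scaling signs turned for Jun in SePC-La against Laser (0.038) and against PC-La (0.057). They also turned for Jund in SePC-La against Laser, under median-ratio scaling (0.0024) and under quantile normalization (0.025). Under quantile normalization Jun moved the other way, to -0.16 in SePC-La against Laser and -0.14 against PC-La. Whether the shift of the median turned these signs was not tested. With each sample left out, log2 fold changes in SePC-La against Laser ran from -2.44 to 0.14 for Fosb, -1.11 to 0.049 for Fos, -0.86 to 0.89 for Egr1, -0.50 to 0.26 for Klf6, -0.15 to 0.66 for Fosl2, -0.21 to 0.10 for Jund and -0.12 to 0.062 for Jun. In PC-La against Laser they ran from -0.84 to 1.74 for Fosb, -0.13 to 1.62 for Egr1, -0.25 to 0.91 for Fos, -0.26 to 0.55 for Fosl2, -0.033 to 0.65 for Junb, -0.063 to 0.040 for Jun and -0.41 to 0.12 for Jund. In SePC-La against PC-La they ran from -0.11 to 0.074 for Jun and -0.18 to 0.35 for Jund. In PC-La against Laser Ier3 ran from -0.88 to -0.15 and Klf6 from -0.91 to -0.15. Ier3 and Fosl1 kept their sign in all 3 comparisons under each alternative run, including those settings that could change it. With quantile normalization 8 genes and with a minimum mean of 5 FPKM 3 genes of SePC-La against PC-La had a limma adjusted p under 0.05. Without Laser replicate 1, 97 genes in SePC-La against Laser and 312 in PC-La against Laser had a limma adjusted p under 0.05. Ier3 (0.0175, range over the alternatives 0.0175 to 0.735) and Junb (0.0409, range 0.0409 to 0.735) were among the former and Egr1 (0.0285, range 0.0285 to 0.999) among the latter.

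With the replicate number as a replicate block, 81, 133 and 285 genes of the table and 1, 0 and 2 of the 10 met the criterion, and the block changed no call of the 10 genes. With the SePC-La numbers exchanged, a crossed pairing chosen after seeing the data, the counts were 75, 183 and 414, and 1, 0 and 3 of the 10.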
